A study of Mus musculus with 48 samples.

Results

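The genes described here encode collagens, other proteins of the extracellular matrix and markers of the stromal cells that make it. They were taken as 45 listed symbols whose rows in a table of 22354 genes averaged at least 0.3 CPM (reads scaled to a common library size) over all 48 libraries, with albumin left out of the totals. All 45 met this level. The members with the lowest mean levels were C7 (0.416 CPM), Lox (0.424 CPM) and Fbln1 (0.523 CPM), and no listed symbol fell below the limit. Only this mean level chose the rows, and the symbols themselves were listed with earlier results of these data known. All 45 also passed the low-count filter of the tests.

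Liver RNA was sequenced from C57BL/6 mice that had spent 36 h in constant darkness and were then killed at 0, 4, 8, 12, 16 or 20 h. The group called KO carried floxed Bmal1 alleles and a Cre recombinase driven by the aP2 promoter, and the group called WT held littermate controls. The labels give no Cre or flox genotype for the controls. The aP2 (Fabp4) promoter was built to direct expression to adipocytes, and it is also active in some macrophages and other cells. In which liver cells, stromal cells included, the recombinase acted was not measured here. There were 25 WT and 23 KO libraries, each from 1 mouse: 4 per group, except 5 WT and 3 KO at 16 h, where the design text gives 4 of each.

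Total counts without albumin were nearly equal, at 12841969 to 13009797 per library. Some values go against the labels. The mice are described as males of 4 to 6 months, yet Xist had 3029 to 13969 counts in every library and the Y-linked genes summed to at most 1. The labels give adipocyte as the cell type beside liver as the tissue, and hepatocyte markers summed to 14284 to 50447 CPM, while Lep was at 0 in 47 libraries and Adipoq in 25. Arntl, the symbol of Bmal1, ranged over the times from 1.57 to 37.0 CPM in the KO libraries and from 0.818 to 43.7 CPM in WT, with a log2 change of 0.30 ± 0.16 (edgeR adjusted p = 0.347), so its liver levels do not check the genotype labels. WT_0h replicate 3 held RNA of adrenal cortex genes (134 CPM over 6 markers, WT median 2.99) and KO_0h replicate 2 of exocrine pancreas genes (304 CPM over 8 markers, KO median 8.58).

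Liver matrix is built mainly by stellate cells, which lie along the sinusoids and store retinoids, and by fibroblasts around the portal vessels and bile ducts. Fibrillar collagens form the load-bearing fibres, collagen IV and laminins form sheet-like basement membranes, and small proteoglycans, fibulins and lysyl oxidases organise and cross-link these networks. When stromal cells are activated they raise fibrillar collagen and smooth muscle actin, the hallmark of liver fibrosis. In bulk liver RNA, fewer cells of a type and less RNA per cell cannot be told apart.

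Per kilobase of exon, with all annotated exons of a gene merged, the member with the highest level was Col18a1, at 81.7 CPM per kb. It encodes the collagen whose cleavage yields endostatin and which hepatocytes are known to express. Dcn, encoding decorin, followed at 46.4 CPM per kb, Bgn, encoding biglycan, at 10.8, Gsn at 7.30 and Sparc at 7.28 CPM per kb. The fibrillar collagens were far lower, from Col5a3 at 3.26 and Col3a1 at 1.06 to Col1a1 at 0.275 CPM per kb. Lama2 (0.0953) and Lox (0.0882) had the lowest values on this scale. Markers of stellate cells were present in every library, with Lrat at 3.72, Reln at 2.34, Hand2 at 2.32 and Des at 1.17 CPM per kb, and genes often used for portal fibroblasts spanned Gsn at 7.30, Mgp at 1.78, Col15a1 at 0.558, Fbln2 at 0.152 and Eln at 0.112 CPM per kb. The RNA therefore holds stromal transcripts, but the counts do not say which cells they came from.

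The promoters of 4 members are shown because Cpxm1 and Podn had the most negative change of the genes above 1 CPM in WT, and Fbln1 and Reln are the members with a promoter entry that hold the E-box CACGTG, the site bound by BMAL1 and its partner CLOCK. Each line gives the 250 bases before the annotated start, 5′ to 3′ on the gene's strand, from RefSeq on GRCm38.p6. Capitals mark CACGTG and GGGCGG (the GC box of the SP1 family) on either strand.
Cpxm1, chr2:130397630-130397879, minus strand: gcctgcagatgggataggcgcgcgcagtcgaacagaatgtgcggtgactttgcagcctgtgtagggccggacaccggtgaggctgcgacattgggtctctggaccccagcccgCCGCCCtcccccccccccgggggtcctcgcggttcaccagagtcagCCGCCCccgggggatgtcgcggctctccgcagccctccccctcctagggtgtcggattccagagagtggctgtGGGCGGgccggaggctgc
Podn, chr4:108031955-108032204, minus strand: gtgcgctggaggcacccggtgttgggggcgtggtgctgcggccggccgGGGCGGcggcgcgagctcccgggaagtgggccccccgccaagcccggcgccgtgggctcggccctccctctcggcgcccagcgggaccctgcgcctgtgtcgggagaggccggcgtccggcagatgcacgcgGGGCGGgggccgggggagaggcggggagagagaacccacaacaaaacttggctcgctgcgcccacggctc
Fbln1, chr15:85205699-85205948, plus strand: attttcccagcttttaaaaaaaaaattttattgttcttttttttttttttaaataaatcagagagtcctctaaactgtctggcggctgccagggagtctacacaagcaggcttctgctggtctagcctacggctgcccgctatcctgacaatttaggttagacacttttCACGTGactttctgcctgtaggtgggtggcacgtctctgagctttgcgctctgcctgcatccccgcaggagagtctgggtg
Reln, chr5:22344706-22344955, minus strand: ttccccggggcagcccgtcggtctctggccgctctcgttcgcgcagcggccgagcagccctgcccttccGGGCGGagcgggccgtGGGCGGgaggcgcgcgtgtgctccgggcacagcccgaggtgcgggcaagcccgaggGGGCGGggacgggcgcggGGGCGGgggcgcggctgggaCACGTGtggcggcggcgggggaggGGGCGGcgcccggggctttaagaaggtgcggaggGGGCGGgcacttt
The E-box lay 81 to 76 bases before the start of Fbln1 and 71 to 66 bases before that of Reln. Of the 45 members, 31 had an entry, with 38 promoters in all. Motifs were searched only in the 250 bases before the start, for the members and for all promoters. CACGTG was in 3 of these 38 (7.90%) and in 6.02% of all 32851 promoters. GGGCGG was in 24 of 38 (63.2%), against 32.7% of all. The AP-1 site TGANTCA was in 2 of 38 (6.75% of all promoters) and the TEAD site CATTCC in 5 of 38 (12.6% of all). The CArG box of serum response factor was in 1 of 38, that of Lama2 (1.47% of all). These are matches of letters, not measured binding.

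Across the 6 times, 8 of 45 members were lower and 2 higher in KO liver. The background over all 13646 genes tested was 1.4% in either direction, 0.777% lower and 0.623% higher. The calls are edgeR quasi-likelihood tests of KO minus WT, averaged over the times, with p-values adjusted over all genes by the Benjamini-Hochberg method and a threshold of 0.05. The 8 lower genes were Cpxm1, C7, Podn, Fbln1, Mgp, Gsn, Fbln2 and Sparcl1, and the higher ones were Lox and Pxdn. None of these 10 is a collagen. The log2 change was negative for 37 of 45 members (51.1% of all genes), with a median of −0.27 against −0.00 for all genes tested. At an unadjusted p below 0.05 there were 17 lower members (8.87% of all genes) and 5 higher (8.26%). Without the 3 libraries that held foreign tissue or stood apart for other reasons (WT_0h replicate 3, KO_0h replicate 2, KO_16h replicate 2), 10 members were lower and 2 higher. Calls over all genes also rose there, to 303 from 191 in the main fit. Without KO_4h replicate 1 alone, 13 members were lower, with 484 of all genes called. Leaving out any 1 of the 48 libraries gave between 6 and 13 lower members. With same-numbered WT and KO mice as a block, 7 were lower and none higher (edgeR adjusted p = 0.0517 for Lox, 0.0792 for Pxdn and 0.157 for Fbln2). With the GC index described below as a covariate, 7 were lower and 4 higher.

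**Figure D1:**
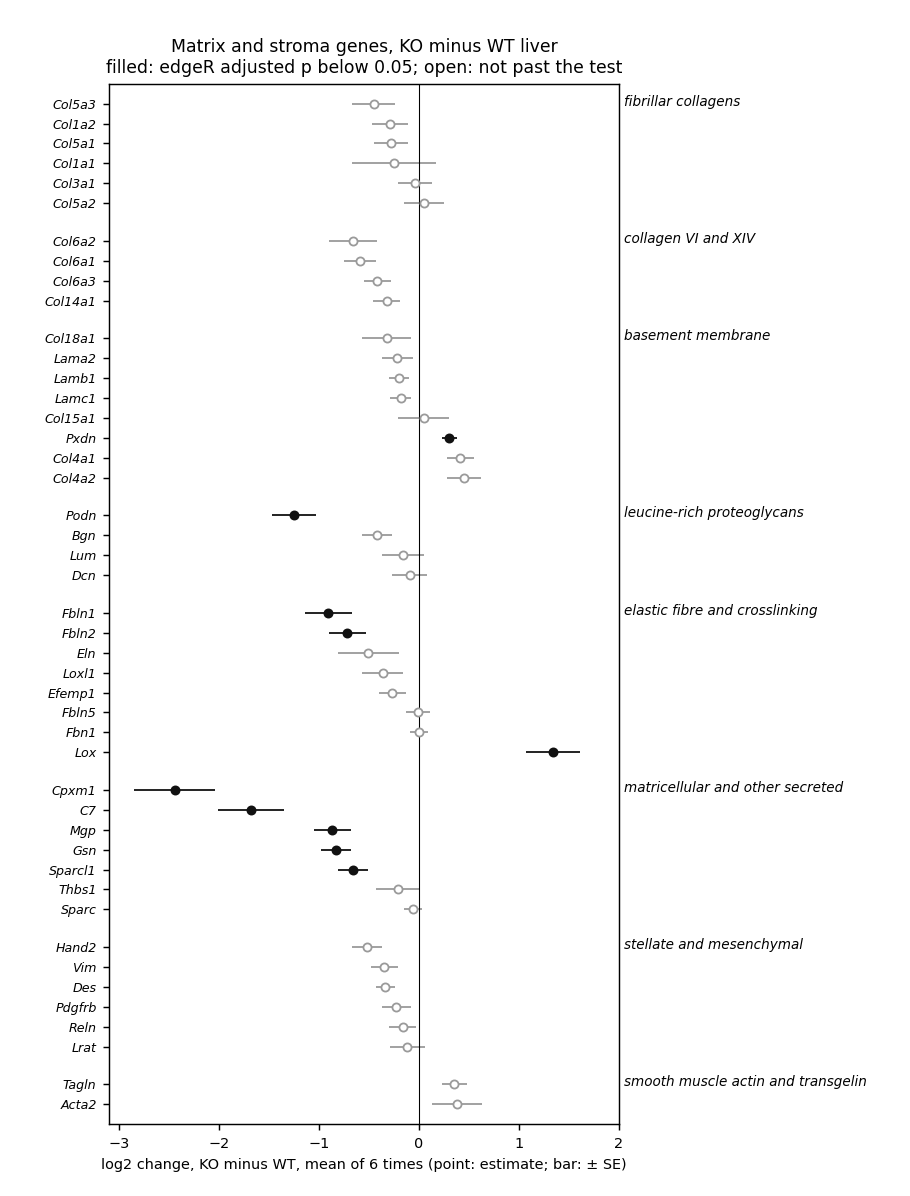
Log2 change of KO minus WT liver for each of the 45 members (x axis, mean of 6 times; bars are ± SE), grouped by role. Filled points passed the edgeR test; the 8 on the left run from Cpxm1 at −2.45 to Sparcl1 at −0.66, and Pxdn and Lox lie on the right.

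The secreted and matricellular proteins held most of the lower genes, with 5 of 7 past the test. Cpxm1, a carboxypeptidase-like secreted protein that lacks the residues of an active enzyme (ENSMUSG00000027408, mm9 chromosome 2, 130216511 to 130223310), ranged from 0.229 to 15.03 CPM in the 25 WT libraries (median 0.837) and from 0 to 0.639 CPM in the 23 KO libraries (median 0.228). Every KO library was below the WT median, and 19 WT libraries were above every KO library. At 16 h the 5 WT libraries had 1.21, 0.837, 7.26, 2.21 and 15.03 CPM and the 3 KO libraries 0.371, 0.0869 and 0.245 CPM. The groups did not overlap at 0, 4 or 16 h. WT values above 7 CPM came from 3 libraries, WT_12h replicate 3 (7.33 CPM) and 2 at 16 h, and the other WT values were 3.01 CPM or less. Cpxm1 fell by 2.45 ± 0.40 on the log2 scale (edgeR adjusted p = 4.7e-04), was lower at all 6 times, and fell by between 2.07 and 2.63 when any 1 library was left out.

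C7, a terminal component of complement (ENSMUSG00000079105, mm9 chromosome 15, 4938762 to 5013740), had few reads, 199 counts over all WT and 59 over all KO libraries. It ranged from 0 to 2.14 CPM in WT (median 0.458) and from 0 to 0.546 in KO (median 0.229), and 5 KO libraries and 1 WT library had no read. Its log2 change was −1.68 ± 0.33 (edgeR adjusted p = 0.00417), and the groups did not overlap at 4 and 20 h. A gene at such counts is known less precisely in any 1 library than Gsn or Sparcl1.

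Gsn encodes gelsolin, an actin-severing protein with a secreted form (ENSMUSG00000026879, mm9 chromosome 2, 35111927 to 35163420). It ranged from 10.6 to 63.8 CPM in WT (median 26.5) and from 5.01 to 32.9 in KO (median 15.6), with 21 of 23 KO libraries below the WT median. At 4 h the WT libraries had 35.0, 26.5, 28.7 and 25.2 CPM and the KO libraries 18.6, 10.3, 5.01 and 5.79 CPM, with no overlap. At 0 h the groups overlapped, with 16.9 to 29.3 CPM in WT and 15.6 to 32.9 in KO. Gsn fell by 0.83 ± 0.15 on the log2 scale over the times (edgeR adjusted p = 0.00140).

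Mgp, matrix Gla protein, an inhibitor of calcification (ENSMUSG00000030218, mm9 chromosome 6, 136820957 to 136824326), ranged from 0.993 to 11.2 CPM in WT (median 2.16) and from 0.2997 to 2.63 in KO (median 1.26). At 20 h the WT libraries had 3.65, 3.59, 3.79 and 11.2 CPM and the KO libraries 1.26, 2.03, 1.85 and 2.30 CPM. The groups did not overlap at 16 and 20 h and did at the other times, and Mgp fell by 0.87 ± 0.19 on the log2 scale (edgeR adjusted p = 0.00898). Sparcl1, a counter-adhesive relative of SPARC (ENSMUSG00000029309, mm9 chromosome 5, 104508130 to 104543107), had a median of 14.3 CPM in WT (5.57 to 25.4) and 8.29 in KO (4.12 to 22.1), and 22 of 23 KO libraries were below the WT median. It fell by 0.66 ± 0.15 on the log2 scale (edgeR adjusted p = 0.0158). Its relative Sparc, at 28.1 CPM in WT and 27.1 in KO on average, had a log2 change of −0.06 ± 0.09, and Thbs1, thrombospondin, of −0.21 ± 0.22, neither past the test.

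Among the small leucine-rich proteoglycans, 1 of 4 passed the test. Podn encodes podocan, a proteoglycan that binds type I collagen (ENSMUSG00000028600, mm9 chromosome 4, 107687396 to 107704942). It ranged from 0.993 to 11.8 CPM in WT (median 3.44) and from 0.386 to 3.62 in KO (median 1.77). At 4 h the WT libraries had 3.76, 3.51, 2.47 and 3.44 CPM and the KO libraries 1.64, 0.644, 0.411 and 0.386 CPM, without overlap. At 16 h they had 7.15, 1.51, 11.2, 4.16 and 11.8 CPM in WT and 2.90, 1.56 and 0.490 in KO, which overlap through WT replicate 2. Podn fell by 1.25 ± 0.22 on the log2 scale (edgeR adjusted p = 0.00102). The other proteoglycans bind and space collagen fibrils; Bgn had a log2 change of −0.42 ± 0.15 (adjusted p = 0.149), Lum, encoding lumican, of −0.16 ± 0.21 and Dcn of −0.09 ± 0.18, none past the edgeR test.

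The elastic fibre and cross-linking genes moved in both directions. Fbln1, a fibulin of elastic fibres and basement membranes (ENSMUSG00000006369, mm9 chromosome 15, 85036379 to 85116965), had 0.0815 to 2.51 CPM in WT (median 0.583) and 0.0750 to 0.768 in KO (median 0.305). It fell by 0.91 ± 0.24 on the log2 scale (edgeR adjusted p = 0.0367), with 20 of 23 KO libraries below the WT median. Fbln2, a fibulin of vessel walls (ENSMUSG00000064080, mm9 chromosome 6, 91162449 to 91222534), had 0.282 to 3.22 CPM in WT (median 1.11) and 0.0750 to 2.00 in KO (median 0.710) and fell by 0.72 ± 0.18 (edgeR adjusted p = 0.0357). Both calls were fragile. Fbln1 missed the test in 20 of 57 other settings, 17 of them with 1 library left out, with adjusted p up to 0.101, and Fbln2 in 14 of 57, up to 0.157. Fbln5, Fbn1 (fibrillin), Eln (elastin), Efemp1 and Loxl1 did not pass, with log2 changes from −0.51 ± 0.31 for Eln to −0.00 ± 0.09 for Fbn1.

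Lox, the lysyl oxidase that starts the cross-linking of collagen and elastin (ENSMUSG00000024529), ranged from 0 to 0.611 CPM in WT (median 0.255) and from 0.150 to 1.502 in KO (median 0.541). At 16 h the WT libraries had 0.241, 0.418, 0.360, 0.255 and 0.0791 CPM and the KO libraries 1.49, 0.782 and 1.31 CPM, without overlap. The groups overlapped at the other 5 times, and 9 of 23 KO libraries were above every WT library. Lox rose by 1.34 ± 0.27 on the log2 scale (edgeR adjusted p = 0.00452), on 80 counts in all WT and 183 in all KO libraries. With the replicate block it missed the test narrowly (adjusted p = 0.0517). Its relative Loxl1 had a negative log2 change, −0.36 ± 0.20 (adjusted p = 0.358).

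**Figure D2:**
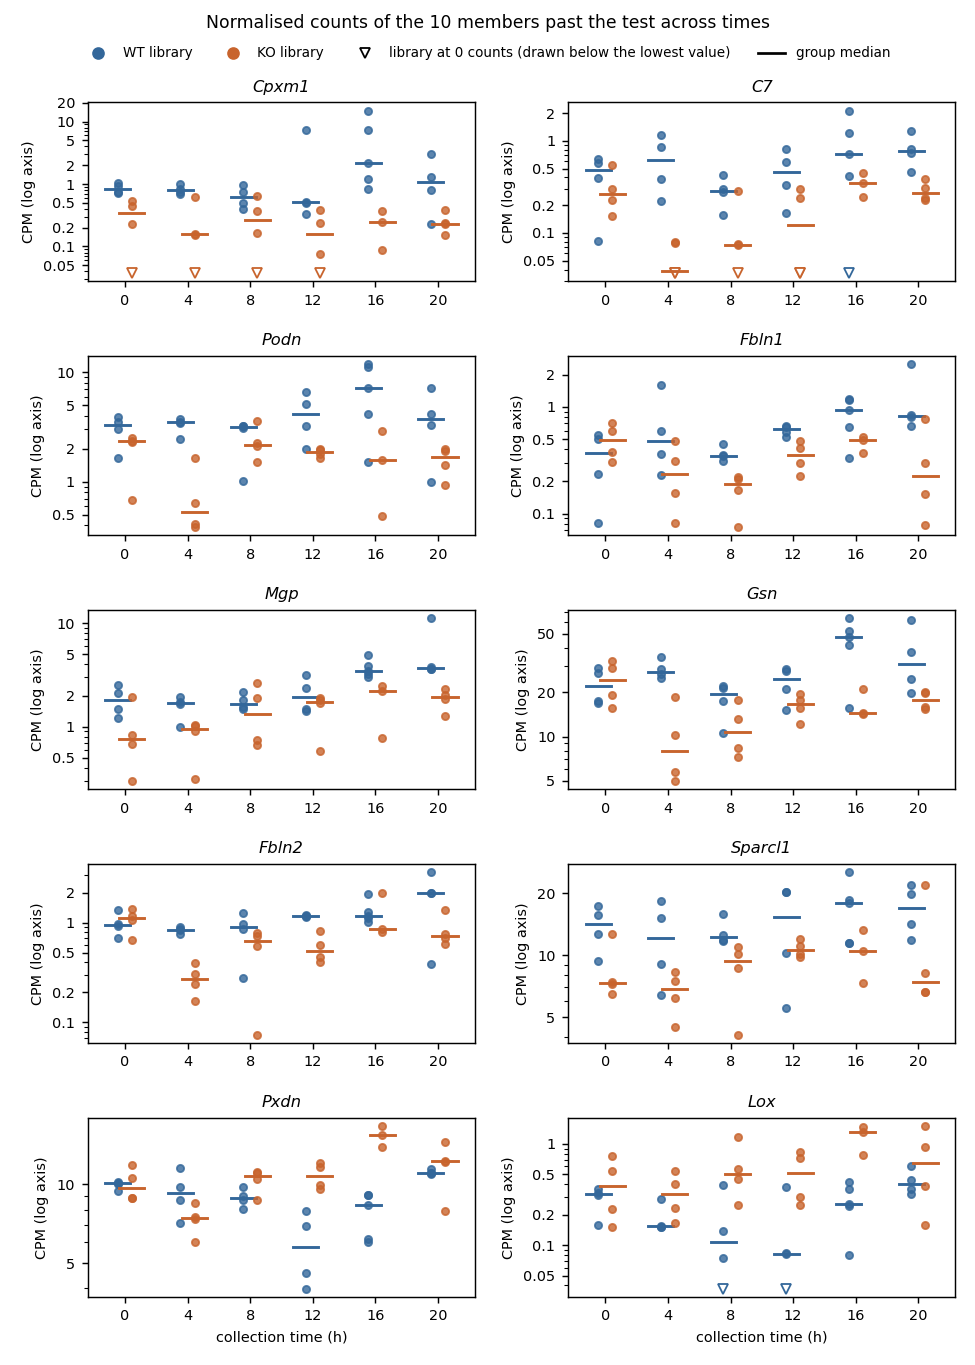
CPM of each library (y, log axis) against collection time (x, h) for the 10 members past the test across times, WT in blue and KO in orange; lines are group medians and open triangles stand for libraries with no count (1 triangle can stand for 2 libraries). Cpxm1 in WT reaches 15.03 CPM at 16 h, while KO stays at or below 0.639 CPM, and Pxdn in KO lies above WT at 12 and 16 h.

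No fibrillar or type VI collagen gene passed the test. Col1a1, the main chain of type I collagen, ranged from 0.0837 to 9.31 CPM in WT (median 0.897) and from 0 to 5.84 in KO (median 0.913), and its log2 change of −0.25 ± 0.42 had the largest SE of the 45 members. Its partner chain Col1a2 had a change of −0.29 ± 0.18, Col3a1 of −0.04 ± 0.17, Col5a1 of −0.28 ± 0.17, Col5a2 of 0.05 ± 0.20 and Col5a3, which had the most reads of the group, of −0.45 ± 0.22. The 3 chains of collagen VI, a beaded-filament collagen around cells, all had negative values: Col6a1 −0.59 ± 0.16 (edgeR adjusted p = 0.0556), Col6a2 −0.66 ± 0.24 (0.159) and Col6a3 −0.42 ± 0.13 (0.103). Col14a1, a collagen on the fibril surface at 32.9 CPM in WT and 26.6 in KO on average, had −0.32 ± 0.14 (adjusted p = 0.218). Col6a1 was the member nearest to the threshold. It passed in 9 of 57 other settings, among them DESeq2.

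The basement membrane genes had 1 of 8 past the test, Pxdn, the peroxidase that forms sulfilimine cross-links in collagen IV (ENSMUSG00000020674, mm9 chromosome 12, 30622901 to 30702523). At 12 h the WT libraries had 6.96, 7.93, 4.58 and 3.99 CPM and the KO libraries 9.94, 12.1, 11.6 and 9.60 CPM. At 16 h they had 6.19, 9.12, 9.13, 6.02 and 8.31 CPM in WT and 16.7, 15.4 and 13.95 in KO. KO was above WT without overlap at these 2 times, and the groups overlapped at the other 4. Pxdn rose by 0.30 ± 0.08 on the log2 scale over the times (edgeR adjusted p = 0.0266). That call rests on the 16 h groups: with both left out the change was 0.17 ± 0.08 (adjusted p = 0.333). It also missed with the replicate block (0.0792).

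The substrate of Pxdn is encoded by Col4a1 and Col4a2, whose rows overlap on mm9 chromosome 8 only from 11312805 to 11312826. Reads in that short stretch could belong to either gene, whose merged exons span 7464 and 6619 bases. Col4a1 ranged from 5.80 to 29.4 CPM in WT (median 11.6) and from 7.42 to 30.6 in KO (median 17.4), a log2 change of 0.41 ± 0.14 (edgeR adjusted p = 0.111). Col4a2 had a change of 0.45 ± 0.17 (adjusted p = 0.175) and was higher in KO at all 6 times. Neither passed, but both did when a GC index of each library, described below, entered the model, with changes of 0.62 and 0.70 (both adjusted p = 1.5e-04). The laminin chains Lama2, Lamb1 and Lamc1 had changes from −0.22 ± 0.16 to −0.18 ± 0.10, and the basement membrane collagens Col15a1 and Col18a1 of 0.05 ± 0.25 and −0.32 ± 0.25, none past the test.

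None of the 6 stellate and mesenchymal genes and neither contractile gene passed. All 6 of the first had negative changes: Hand2, a stellate cell transcription factor, −0.52 ± 0.15 (edgeR adjusted p = 0.0725), Vim (vimentin) −0.34 ± 0.13, Des (desmin) −0.34 ± 0.10 (0.0646), Pdgfrb −0.23 ± 0.14, Reln (reelin) −0.16 ± 0.13 and Lrat, which makes retinyl esters for storage, −0.12 ± 0.18. Tagln, encoding transgelin, had 3.90 CPM in WT and 5.01 in KO on average (log2 change 0.35 ± 0.12, adjusted p = 0.146), and Acta2, smooth muscle actin, 1.71 and 2.11 CPM (0.38 ± 0.25, adjusted p = 0.429). Tagln was among the 3 members that were higher at all 6 times (3.61% of all genes), and 13 members were lower at all 6 (4.92%).

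Time by time, few differences could be called. The 1 member past the test at a single time was Pxdn at 16 h, with a log2 change of 0.98 ± 0.18 (edgeR adjusted p = 0.0484; 0.022% of all genes passed at 16 h). No member passed at 0 h (0.0147% of all genes), at 4 h (0.0366%) or at 8, 12 or 20 h (0.0%). The change was negative for 18 of 45 members at 0 h (51.2% of all genes), 38 at 4 h (50.3%), 31 at 8 h (49.1%), 32 at 12 h (51.9%), 29 at 16 h (49.3%) and 36 at 20 h (52.0%), so at 0 h most members did not lie on the lower side. With an unadjusted p below 0.05 there were 3 members at 0 h (5.53% of all genes), 12 at 4 h (23.3%), 3 at 8 h (1.82%), 8 at 12 h (4.4%), 7 at 16 h (6.65%) and 9 at 20 h (1.84%). The 12 at 4 h are 26.7% of the members and near the background, while the 9 at 20 h are 20.0% of them. DESeq2 gave 5 calls of members at single times. The 4 h groups depend on KO_4h replicate 1: without it there were 14 calls of members at single times. The share of all genes called at single times was not computed for these fits. Across times, more of all genes were called in them, 356 with DESeq2 and 484 without KO_4h replicate 1, against 191. KO_4h replicate 1 was high for the KO group, with Cpxm1 at 0.623 CPM against at most 0.161 and Podn at 1.64 against at most 0.644 in the other 3. Its GC index, described below, was 0.73 against −0.54, −1.22 and −1.05 in those 3, and the WT libraries at 4 h lay between −0.023 and 0.78. With the GC index as a covariate there was 1 call at single times, as without it, and with the replicate block none (0).

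No member had a genotype by time interaction past edgeR's test (0.00733% of all genes), and 2 had an unadjusted p below 0.05 (3.27%). They were Pxdn (edgeR adjusted p = 0.125) and Gsn (0.953). DESeq2 called 1. The log2 change of Pxdn was −0.34 at 4 h, 0.88 at 12 h and 0.98 at 16 h.

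Daily rhythm was tested with a 24 h harmonic in each genotype. In WT 12 of 45 members (26.7%) were rhythmic by edgeR, with a background of 16.3% of all genes, and in KO 13 (28.9%), with 17.0%. The members past the test in both genotypes were 7 (9.59% of all genes): Col4a1, Pxdn, Bgn, Sparc, Des, Pdgfrb and Vim. In WT also Cpxm1, Mgp, Col1a2, Col6a3 and Lamb1 passed, and in KO also Col6a2, Col14a1, Fbln2, Fbln5, Lama2 and Lamc1. Vim, the intermediate filament of mesenchymal cells, averaged 11.3 ± 2.3 CPM (SD, n = 4) in WT at 8 h and 27.5 ± 11.2 CPM (n = 5) in WT at 16 h. The KO means were 8.77 ± 3.83 CPM (n = 4) at 4 h against 19.5 ± 11.9 CPM (n = 3) at 16 h. Bgn averaged 44.0 ± 12.0 CPM (n = 4) in WT at 8 h and 107 ± 40 CPM (n = 5) in WT at 16 h, and in KO 36.4 ± 28.3 CPM (n = 4) at 4 h, with 73.4 ± 28.8 CPM (n = 3) at 16 h. At 16 h the WT libraries alone spanned 15.2 to 42.8 CPM for Vim and 48.2 to 145 CPM for Bgn, which reaches down into the range of the 8 h libraries for Bgn.

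The fitted peaks of the rhythmic members lay between 16.6 and 23.8 h after the first collection in WT and between 16.1 and 21.1 h in KO. Of all rhythmic genes, 30.8% of 2228 in WT and 27.6% of 2322 in KO peaked in these windows, which the members themselves set. The median amplitude of the 45 members, from mean to peak in log2 units, was 0.38 in WT and 0.40 in KO, against 0.22 and 0.25 for all genes tested. In WT the rhythmic members with the largest amplitudes were Cpxm1 (0.77, peak 16.6 h) and Mgp (0.74, peak 17.9 h), and in KO Col6a2 (0.79, peak 20.4 h) and Fbln2 (0.66, peak 18.6 h). With both 16 h groups left out, Cpxm1 missed the rhythm test in WT (edgeR adjusted p = 0.238) and Mgp passed (0.00665). In KO, Fbln2 then missed it (edgeR adjusted p = 0.0999) and Col6a2 passed (0.0380). The WT count depends on single libraries: it was 5 without WT_20h replicate 4 and 20 without WT_20h replicate 2. The KO count was 7 without KO_4h replicate 4, KO_8h replicate 4 or KO_16h replicate 1 and 8 without KO_4h replicate 2 or 3, and with both 16 h groups left out 5 members passed in WT and 6 in KO.

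**Figure D3:**
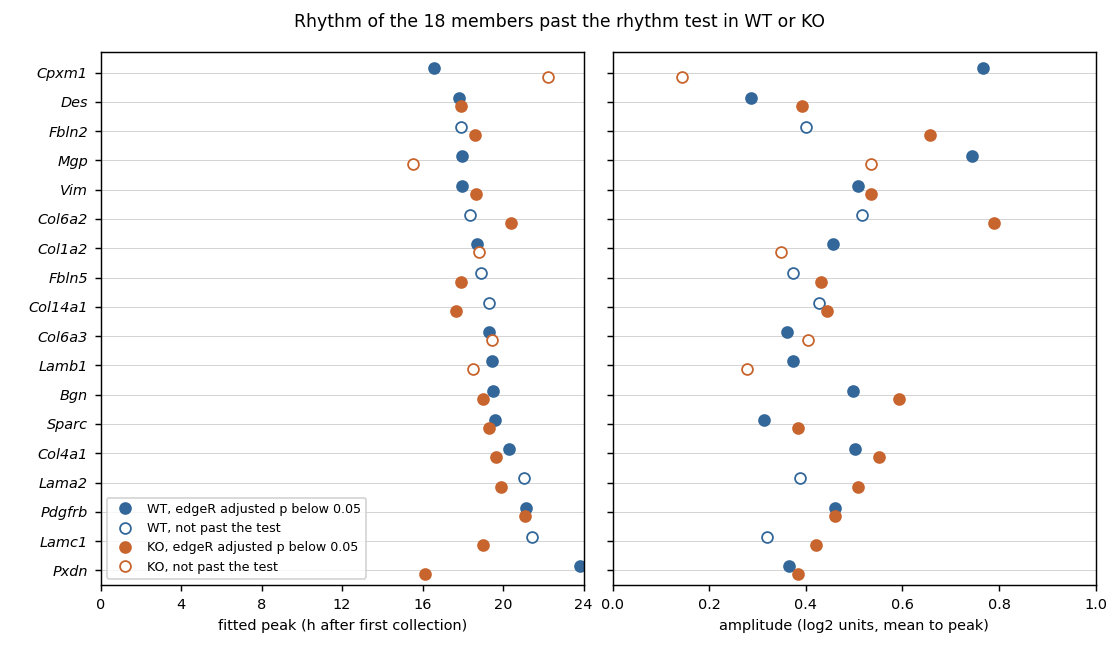
Fitted peak time (left, h after the first collection) and amplitude (right, log2 units from mean to peak) of the 18 members past the rhythm test in WT (blue) or KO (orange); filled points passed. All filled peaks lie between 16.1 and 23.8 h, and for Pxdn the WT peak is at 23.8 h and the KO peak at 16.1 h.

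A difference in rhythm between genotypes did not pass edgeR's test for any member (0.00733% of all genes), and 2 had an unadjusted p below 0.05 (2.66%). DESeq2 called 1. Pxdn peaked at 23.8 h in WT, with an amplitude of 0.37, and at 16.1 h in KO, with 0.38 (edgeR adjusted p = 0.134). Cpxm1 had an amplitude of 0.77 in WT and 0.14 in KO (edgeR adjusted p = 1.00). Cpxm1 had only 75 counts over all KO libraries, 4 of which had none, against 644 counts in WT, so its KO amplitude is poorly known. A member that passed the rhythm test in 1 genotype alone is not shown to differ in rhythm.

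Mice of the same group differed widely in these genes, and the members deviated together. Over 990 pairs of members, the median Pearson r between their deviations from the group means was 0.25 over 48 libraries, and 747 pairs were positive. The median over all pairs of genes of at least 1 CPM was −0.003. These values describe libraries that share depth, scaling and base composition. The libraries with most members above their group mean were WT_16h replicate 5 (41 of 45), WT_16h replicate 3 and WT_8h replicate 4 (40 each) and WT_20h replicate 4 (37), and those with fewest were KO_8h replicate 4 (2), KO_4h replicate 3 and WT_12h replicate 4 (9 each). WT_16h replicate 5 also had the highest sum of 6 lymphocyte markers, 1225 CPM against a WT median of 15.7, nearly all from Ighm, and the highest red blood cell sum, 414 CPM. WT_20h replicate 4 had the highest endothelial sum in WT, 294 CPM. The part of these in the values of Cpxm1, Podn and C7 was not tested beyond leaving out each library, which did not end their calls.

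By these correlations, read after the values were seen, strongly correlated pairs were found in 2 sets of members. Col5a1 and Podn (r = 0.90), Col6a1 and Col6a2 (0.84), Col1a1 and Col6a2 (0.84) and Col4a1 and Col4a2 (0.82) deviated together, as did Pdgfrb and Col1a2 (0.85). In the second set Dcn and Lrat (0.90), Lrat and Lum (0.88), Dcn and Reln (0.84) and Col14a1 and Reln (0.83) deviated together. Some pairs across the sets had negative values, such as Col18a1 with Lum (−0.83) and Lrat (−0.82) and Col1a1 with Lrat (−0.64). Others did not, such as Col6a1 with Col14a1 (0.086), and Lamb1 went with genes of both sets (0.56 with Dcn, 0.46 with Pdgfrb). Dcn ranged from 90.9 to 611 CPM in WT and from 118 to 587 in KO, and Col18a1 from 191 to 1319 in WT and from 182 to 1512 in KO. WT_16h replicate 2 had both the highest WT value of Dcn and the lowest of Col18a1.

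**Figure D4:**
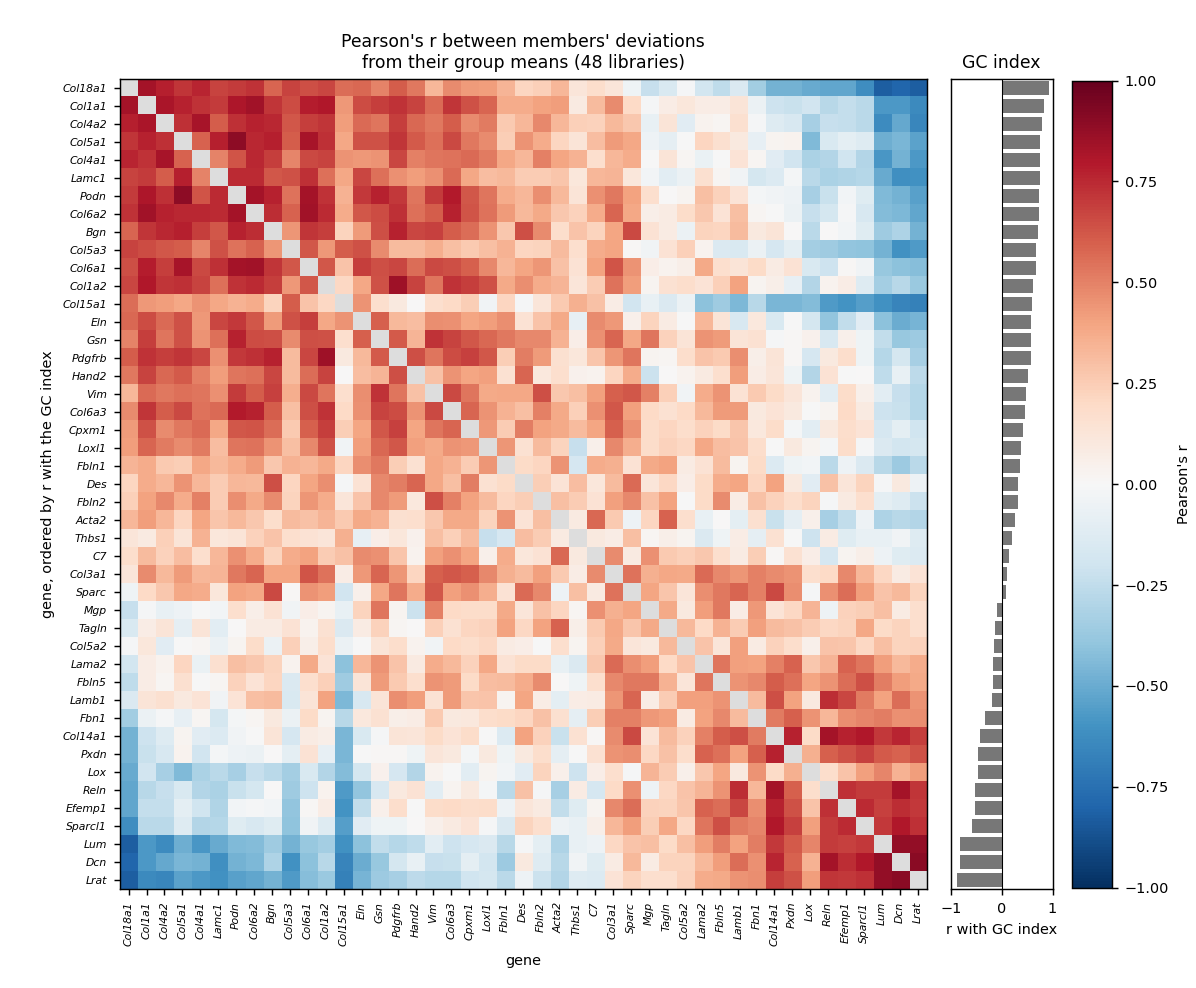
Pearson's r between the deviations of the 45 members from their group means over 48 libraries (colour), with genes ordered by their r with the GC index taken from group means (bars on the right). The upper left block holds Col18a1, Col1a1 and Podn, the lower right block Lum, Dcn and Lrat, and r between the genes at the far ends of the order is negative (Col18a1 and Lum, −0.83).

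Many members also deviated with the base composition of their libraries. A GC index was computed for each library as the mean deviation of genes with at least 55.0% GC minus that of genes with at most 46.1% GC. With deviations from each gene's mean over all libraries, the form used as covariate, it ranged from −1.22 to 0.92. This form averaged 0.14 in WT and −0.16 in KO. The r values use a second form, with deviations from the group means. Deviations of Col18a1 (r = 0.93, 60.6% GC), Col1a1 (0.83, 56.4% GC) and Podn (0.74, 56.6% GC) rose with the second form, and those of Lrat (−0.88, 41.97% GC), Dcn (−0.82, 42.4% GC) and Lum (−0.82, 41.9% GC) fell. Of 45 members, 17 had r above 0.5 and 6 below −0.5, and across members r rose with the GC content of the gene (r = 0.76, genes not being independent). The share of all genes past these bounds was not computed, so the counts do not set the members apart from other genes. Lamc1 (46.4% GC, r = 0.75) and Col1a2 (46.2% GC, r = 0.62) were exceptions, with a low GC content and a positive r. The index is taken over the tested genes with a known GC content, with the members left out.

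With the GC index as a covariate, 7 members were lower and 4 higher. Cpxm1, Podn, C7, Gsn, Mgp and Sparcl1 remained lower, with Cpxm1 at −1.99 ± 0.38 and Podn at −0.97 ± 0.16 (edgeR adjusted p = 0.00234 and 7.5e-04). Fbln1 and Fbln2 missed the test with changes of −0.73 ± 0.23 and −0.61 ± 0.18 (adjusted p = 0.101 and 0.0837), Lrat passed at −0.35 (adjusted p = 0.0244), and Col4a1 and Col4a2 joined Lox and Pxdn. Col1a1 changed sign, to 0.45 ± 0.26, and Col18a1 too, to 0.14 ± 0.10, without passing in either fit. The covariate moved the rhythm counts to 19 in WT and 16 in KO.

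**Figure D5:**
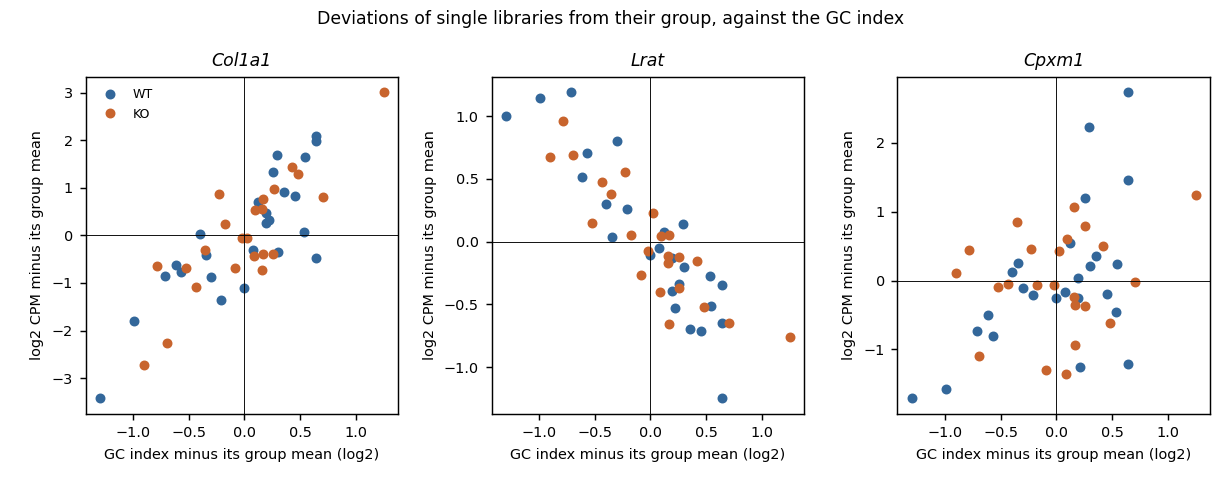
Deviation of log2 CPM from the group mean (y) against that of the GC index (x, log2) for Col1a1, Lrat and Cpxm1, 1 point per library, WT in blue and KO in orange. Col1a1 rises with the index (r = 0.83), Lrat falls (r = −0.88) and Cpxm1 is more scattered (r = 0.42).

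Of 48 other matrix genes tested, 2 were lower and none higher, with 46 not past the test and 40 of 48 changes negative (0.777% of all genes were called lower and 51.1% had a negative change): Fbln7, a fibulin, fell by 1.03 ± 0.20 and Lamb2, a laminin chain, by 0.66 ± 0.16 on the log2 scale (edgeR adjusted p = 0.00335 and 0.0214), and Fmod, fibromodulin, had −1.01 ± 0.28 (0.0589). Their median change was −0.28. Of 22 genes of TGF-beta and PDGF signalling, which drive stromal matrix production, 1 was lower and 18 had a negative change. This was Ltbp1, which stores latent TGF-beta in the matrix, with a fall of 0.64 ± 0.15 (0.0158), while Ltbp4 had −1.01 ± 0.33 and the inhibitor Smad7 −0.56 ± 0.19, neither past the test. None of 24 genes of collagen synthesis and processing passed, with 20 negative changes, nor did any of 18 matrix receptor genes, with 12. The lowest p-values there belonged to Adamts14, a procollagen protease (−0.66 ± 0.19, adjusted p = 0.0666), Fkbp10 (−0.50 ± 0.16) and Pcolce (−0.41 ± 0.14) in the first and to the integrin gene Itga8 (0.51 ± 0.16), Ddr1 (−0.55 ± 0.24) and Sdc1 (−0.17 ± 0.09) in the second.

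Markers of other cells were measured beside these results. None of 7 bile duct, 10 endothelial, 8 macrophage, 7 smooth muscle or 4 mesothelial markers tested passed, and 1 of 6 lymphocyte markers was lower, Ighm at −1.63 ± 0.44 (edgeR adjusted p = 0.0488). Ighm had nearly equal medians, 8.74 CPM in WT and 8.46 in KO, and was highest in WT_16h replicate 5 (1189 CPM) and in 1 WT library at 12 h (294 CPM). The lymphocyte sums had medians of 15.7 and 15.8 CPM. The 4 mesothelial markers, whose cells cover the liver and express many matrix genes, all had negative changes (median −0.39) and summed to 2.00 to 22.4 CPM in WT (median 8.86) and 1.499 to 16.3 in KO (median 6.63). The 7 bile duct markers summed to a median of 89.5 CPM in WT and 89.1 in KO, and the 10 endothelial markers to 201 and 223 CPM. The bile duct sum was mostly Spp1 (median 69.7 CPM) and says little about the other markers. Of the 7 bile duct changes, 5 were negative and 2 positive, with Krt7 at −0.49 ± 0.15 (edgeR adjusted p = 0.0748). The 7 adipocyte markers had medians of 112 and 81.0 CPM, mostly Plin4 (median 82.99 CPM, log2 change −0.63 ± 0.21, edgeR adjusted p = 0.120) and Cidec (7.29 CPM, 0.03 ± 0.36), the 2 that could be tested and neither past the test, while Lep was at 0 in 47 libraries, Retn in 41, Plin1 in 33, Cfd in 27 and Adipoq in 25. The 9 smooth muscle markers, which include the member Des, had medians of 108 and 118 CPM, with Cnn1 at 0 in 14 libraries and Actg2 in 12. Mylk (median 81.9 CPM) held most of that sum. Of the 7 smooth muscle markers tested, 4 had negative and 3 positive changes, with Smtn at −0.72 ± 0.23 (edgeR adjusted p = 0.104). The part of these cells in the 10 calls was not tested.

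The 10 non-member genes of at least 1 CPM whose deviations were most like the members' mean, over 48 libraries, were Mmp2 (r = 0.83), Tnxb (0.83), Timp2 (0.82), Adamts2 (0.81), Rcn3 (0.81), Gpr124 (0.78), Cygb (0.76), Kirrel (0.75), Arvcf (0.75) and Mxra8 (0.75). Cygb encodes cytoglobin, a globin of stellate cells. It ranged from 4.12 to 19.5 CPM in WT (median 8.18) and from 1.88 to 11.3 in KO (median 4.62) and fell by 0.86 ± 0.18 on the log2 scale (edgeR adjusted p = 0.00781). Arvcf and Mxra8 fell by 0.40 ± 0.10 and 0.46 ± 0.11 (adjusted p = 0.0206 and 0.0214). The other 7 did not pass, with Mmp2, a gelatinase, at 0.01 ± 0.19.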

How the data were processed

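The table deposited by the authors gives read counts, all whole numbers, for every gene in 48 liver libraries. CASAVA, STAR 2.4.1d and the build mm9 were used, per the submitters' processing notes. The table is named as one of sense counts, while the kit named in the labels keeps no strand. How sense was assigned, the counting rule and the annotation are not stated in the sources used here, so reads of overlapping genes cannot be told apart. Totals without albumin were nearly equal, which does not show equal depth. Albumin, the 1 gene marked as high in the table, was left out of totals and tests. Groups, times and replicate numbers came from the labels. Between libraries of a group the chi-square per degree of freedom was at least 22.4, so none was a repeat.

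Counts were fitted with edgeR 4.0.16 in R 4.3.3. Its filter (minimum count 10, minimum total 15) kept 13646 genes and removed 8707, and TMM factors scaled them. A quasi-likelihood model of 12 group means over all 48 libraries gave the mean KO minus WT difference, the difference at each time and the interaction (5 degrees of freedom). A second model with a 24 h harmonic in each genotype gave the rhythm tests. P-values were adjusted by Benjamini-Hochberg over all genes, with a threshold of 0.05. An SE is the log2 change divided by the square root of F. CPM use TMM-scaled library sizes, amplitudes and deviations log2 CPM with a prior count of 2, and levels per kilobase the exon lengths of GENCODE M21 on GRCm38, which may differ from the authors' annotation. GC content was known for 97.58% of tested genes and every member. The tests were tested on simulated counts.

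The members and lists were chosen with earlier results of these data known. Named are every member past a test, the member with most counts in each role, Podn and Cpxm1, the 3 lowest p-values of each other list and the 10 genes most like the members, plus members singled out after their values were seen. Alternatives were DESeq2 1.42.0, RLE factors, library totals, no filter, robust moderation, a replicate block, leaving out each library, 3 unusual libraries or both 16 h groups, and, chosen after seeing the data, the GC index as a covariate. Same-numbered WT and KO mice deviated together (r above 0.1 over 2000 genes) in 13 of 23 pairs and in all 4 only at 4 h (0.215 to 0.522), and the labels do not say what a number marks.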

Additional observations from a re-analysis of the deposited data

Results flagged for a closer look

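In groups of 4 or 5, a single library stood apart from the others by Dixon's test (95% critical value 0.829 for 4 and 0.710 for 5) in 16 of 198 groups over 18 members, and chance gives about 1 in 20. KO_8h replicate 4 was low for Col14a1 (10.7 CPM, the others 21.2 to 23.7) and Sparc (13.8 CPM, the others 23.4 to 24.1). KO_12h replicate 4 was low for Efemp1 (6.90 CPM), Reln (31.1 CPM, the others 58.7 to 61.7) and Tagln (4.88 CPM, the others 5.95 to 6.04). WT_8h replicate 4 was high for Col14a1 (39.7 CPM, the others 21.5 to 23.5) and WT_16h replicate 2 low for Col18a1 (191 CPM, the others 857 to 1319). Cpxm1 was high in WT_12h replicate 3 (7.33 CPM, the others 0.333 to 0.524). Mgp was high in WT_20h replicate 4 (11.2 CPM, the others 3.59 to 3.79) and low in KO_4h replicate 4 (0.309 CPM) and KO_12h replicate 2 (0.583 CPM, the others 1.69 to 1.88). Podn was low in WT_8h replicate 2 (1.02 CPM, the others 3.06 to 3.24) and KO_0h replicate 2 (0.684 CPM, the others 2.32 to 2.52). Lox in WT_4h replicate 4 had 0.287 CPM, which is 4 counts against 2 in each of the others. Pxdn was slightly high in WT_20h replicate 2 (11.5 CPM, the others 11.0) and Reln low in WT_4h replicate 1 (25.6 CPM, the others 54.8 to 60.9).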

How the results depend on the processing

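Cpxm1, Podn, C7, Gsn, Mgp and Sparcl1 passed in all 57 alternatives. Lox missed only with the replicate block (adjusted p = 0.0517), Pxdn in 4, Fbln1 in 20 and Fbln2 in 14. No called member changed sign. With DESeq2, 356 genes were called across times, 5 members at single times, 1 with an interaction and 1 with a rhythm difference. Library totals gave 1 higher member and 0 at single times. Without a low-count filter 122 genes were called, 1 member higher, 0 at single times and 7 rhythmic in WT and 8 in KO. With the replicate block (same-numbered mice paired) 127 genes were called, 7 members lower, 0 higher and 0 at single times; no paired rhythm model was fitted. Without the 3 unusual libraries 303 genes and 0 members at single times were called, and without the 16 h groups 1 higher member, 4 at single times and 5 and 6 rhythmic in WT and KO. The GC covariate gave 4 higher members, 19 rhythmic in WT, 1 interaction and 1 rhythm difference. Leaving out 1 library gave 6 to 13 lower and 2 higher members, 99 to 484 genes called (most without KO_4h replicate 1, fewest without KO_16h replicate 3), 0 to 14 members at single times, 0 to 1 interactions, 5 to 20 rhythmic in WT, 7 to 14 in KO and 0 rhythm differences. Sign changes among uncalled members were Col18a1 (0.14) and Col1a1 (0.45) with the GC covariate, Col3a1 without the unusual libraries (0.021), without 16 h (0.012), with the GC covariate (0.015) and with the replicate block (0.043), Fbln5 with the block (0.050), Col5a2 without 16 h (−0.030) and Fbn1 without a filter (0.0012). Leaving out 1 library, the changes spanned Col15a1 −0.043 to 0.20, Col1a1 −0.67 to 0.033, Col3a1 −0.13 to 0.034, Col5a2 −0.089 to 0.13, Fbln5 −0.044 to 0.036, Fbn1 −0.074 to 0.040. The causes were not tested. Members with few counts (C7, Lox, Fbln1) are imprecise in any 1 library. The largest SEs of the change across times were those of Col1a1 (0.42) and Cpxm1 (0.40), with C7 at 0.33.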
